A study of Mus musculus with 12 samples.

Results

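Solute carriers are membrane proteins that move sugars, amino acids, ions, vitamins and metabolites across cell and organelle membranes. Their genes are named Slc with a family number, or Slco for the organic anion-transporting polypeptides. Of the 5764 genes in the deposited table, 79 were solute carrier genes by their symbol. They were all symbols made of Slc, a number, a letter and a number, together with the Slco genes. Of the 83 symbols that began with Slc or Slco, 4 were left out, among them 2 that end in os and Slc51a. The 79 genes belonged to 29 families, of which Slc22 (9 genes), Slc5 (8), Slc25 (6) and Slco (5) were the largest.

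The libraries came from POMCRiboTag mice, whose POMC (pro-opiomelanocortin) lineage neurons carry tagged ribosomes. Tissue enriched for the arcuate nucleus of the hypothalamus was taken, and RNA bound to tagged ribosomes was pulled down with an antibody against HA. In the SENS group (6 libraries) mice saw and smelled chow behind wire mesh without eating it, for 10 min. In the NEO group (6 libraries) the mesh held a wooden, nonedible object. All mice carried the same tag, had fasted for 16 h, were used to the room for 1 h, lived in pairs or triplets and were exposed around zeitgeber time 6 h. The labels state neither age nor sex. How mice map to libraries is not stated, so a p-value here covers the library-to-library spread alone, part of which may be technical. No library without the tag and no input library was among the 12, so the background of the pull-down is unknown. The 5 markers listed for POMC neurons have no value in the table used here, and the labelled cell type could not be checked against them.

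In the brain, sugar carriers bring glucose across the blood-brain barrier and into neurons and glia. Amino acid and transmitter carriers clear the synapse, and carriers of anions and cations set ion gradients and pH. Many other families work chiefly in kidney tubules, liver and gut, where they take up filtered or digested solutes. The table holds genes with few reads, at most 171 per gene over all 12 libraries, and how its genes were chosen is not stated. Which carriers it covers therefore says nothing about which the cells use. Of the 21 carriers listed for transmitter release and uptake in neurons the table held 3, of the 18 listed for astrocytes and tanycytes it held 2, and of the 28 listed for choroid plexus and the blood-brain barrier it held 1. It held 23 of the 41 carriers listed for kidney tubules, 14 of 26 for intestine, 8 of 17 for liver and 7 of 21 for testis. Some genes stood in more than 1 list.

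The values are CPM, that is, reads scaled so that the genes of the table sum to about 1000000 in each library. The SENS libraries held 8619 to 18299 reads in these genes and the NEO libraries 6901 to 11139, so 1 read was worth 54.6 to 145 CPM. The full depth of each library is unknown. Solute carrier genes took 1429.1 reads in SENS and 961.0 reads in NEO. Their summed level was 17895 ± 3712 CPM in SENS and 18920 ± 5078 CPM in NEO (SD, n = 6 each), and the libraries spanned 13632 to 24249 CPM in SENS and 15225 to 28405 CPM in NEO. The ranges overlapped widely. A library had 21 to 39 of the 79 genes above 0 in SENS and 21 to 37 in NEO. Their median was 17 reads per gene over all 12 libraries, against 9 for the other genes of the table. Of the 79 genes, 4 (Slc5a4b, Slc9a4, Slc22a28 and Slc22a29) were at 0 in every library, which is 5.06% against 10.9% of the other genes. Only Slco1a1 was above 0 in every library. A 0 over all 6 libraries of a group allows up to 3 reads, or 38.2 CPM in SENS and 58.8 CPM in NEO, which covers counting error only.

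The comparison of SENS with NEO asked whether the sight and smell of food changed the level of these transcripts in the pulled-down RNA. No solute carrier gene passed. At an adjusted p under 0.05, limma on log2(CPM + 1) called 0 of the 75 solute carrier genes tested, and 0 of all 5141 genes tested (0.0%). The smallest adjusted p was 0.745 among solute carrier genes and 0.728 among all genes. At an unadjusted p under 0.05 there were 5 solute carrier genes, or 6.67% of those tested, against 3.68% of all genes. The count was 1 gene with higher values in SENS (Slc12a1) and 4 with lower values (Slc5a8, Slc13a1, Slc25a43 and Slc38a8), where the background was 1.83% and 1.85%. This split changed with the libraries used. It was 4 higher and 1 lower without SENS 6, where 177 of all 5063 genes had such a p in either direction. Without both SENS 2 and SENS 6 it was 2 higher and 1 lower, beside 166 of all 4932 genes. No solute carrier gene had groups that did not overlap (0.0973% of all genes did). The median log2 fold change was 0.23 over the 75 genes and 0.39 over all genes, and the median standard error was 2.21 and 1.82. Fold changes here are on the log2(CPM + 1) scale and depend strongly on how many libraries are at 0. For 14 of the 75 genes (18.7%) the fold change had the opposite sign to the difference in mean CPM, against 564 of all 5141 genes. Log2 fold changes were above 0 for 41 of the 75 genes (54.7%, against 57.0% of all genes), and the mean CPM was higher in SENS for 37 (49.3%, against 55.2% of all genes). In pulled-down RNA, fewer tagged cells and less RNA per cell cannot be told apart.

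**Figure D1:**
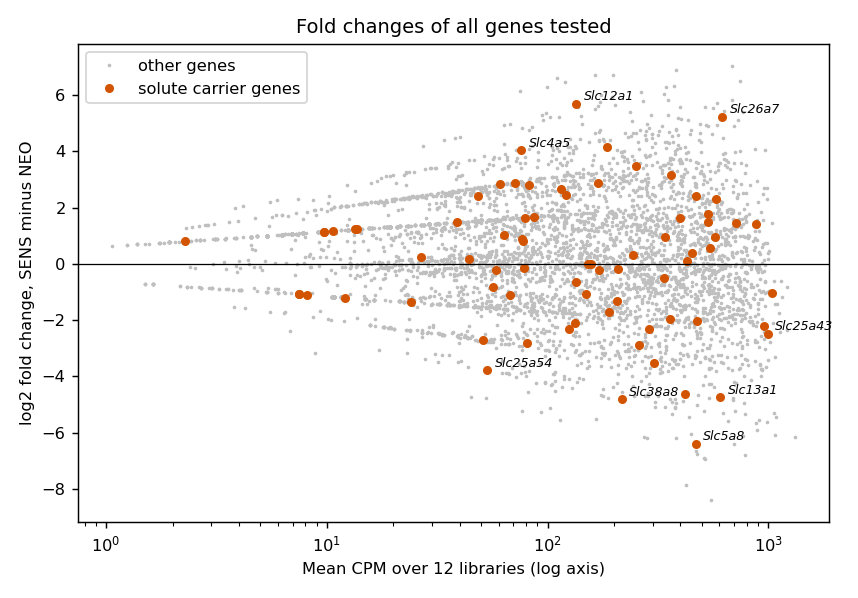
Each point is 1 of the 5141 genes tested, with its mean CPM over 12 libraries on a log axis and its log2 fold change (SENS minus NEO) on the vertical axis. The 75 solute carrier genes (orange) lie within the spread of the other genes (grey), from Slc12a1 at 5.69 to Slc5a8 at -6.39, and the named ones are the 8 with the smallest unadjusted p.

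Sugar carriers came from Slc2, the family of facilitated hexose carriers, and Slc5, the sodium-coupled carriers of glucose and related solutes. The 3 Slc2 genes summed to 647 ± 309 CPM in SENS and 726 ± 887 CPM in NEO. The 8 Slc5 genes summed to 1196 ± 1108 CPM in SENS and 1760 ± 1766 CPM in NEO (SD, n = 6 each). Neither sum set the groups apart.

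Slc2a2 encodes the low-affinity glucose carrier of liver and pancreatic beta cells. It had 0, 1, 6, 0, 0 and 7 reads in SENS 1 to 6, and 1 read in NEO, in NEO 2. Its log2 fold change was 2.82 (SE 2.33), and the limma adjusted p was 0.745. SENS libraries were on both sides, since 3 of them were at 0 like 5 of the NEO libraries. Slc2a7, a hexose carrier of the gut, had 11.7 reads in SENS, of which SENS 2 held 9.7 and SENS 1 held 2, and none in NEO. Its pooled SENS level of 149 CPM was 2.53 times the NEO limit, which sets 0 reads at 3 reads over the group. No error was set on the SENS reads in this ratio or in the later ratios to that limit. Slc2a9, which carries urate as well as hexoses, was the most evenly covered of the 3. It had 7, 3, 5, 3, 5 and 1 reads in SENS 1 to 6 and 6, 16, 15, 0, 1 and 0 in NEO 1 to 6. The mean was 355 ± 259 CPM in SENS and 711 ± 871 CPM in NEO (SD, n = 6 each), and the 6 SENS libraries lay inside the NEO range of 0 to 2098 CPM.

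Slc5a8, a sodium-coupled carrier of lactate and short-chain fatty acids, had the smallest unadjusted p of all solute carrier genes. It had 7.5 and 3 reads in SENS 1 and SENS 2 and none in the other 4 SENS libraries, against 12, 5, 11, 4, 5 and 1.5 reads in NEO 1 to 6. The lowest, median and highest values were 0, 0 and 870.1 CPM in SENS, and 194, 616 and 1538 CPM in NEO. All 6 NEO libraries were above 0, but SENS 1 stood above 4 of them. The mean was 177 ± 348 CPM in SENS and 764 ± 502 CPM in NEO (SD, n = 6 each). At −6.39 (SE 2.21) on the log2 scale, it had an adjusted p of 0.745 in limma. Slc5a12, the closely related lactate carrier, had 1 read, in NEO 2.

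The glucose carriers of Slc5 showed no common direction. Slc5a1, the intestinal sodium-glucose co-transporter, had 7 reads in SENS, all in SENS 1, and 12 in NEO, all in NEO 3. Slc5a2, the co-transporter that recovers most filtered glucose in the kidney, had 11 reads in 3 SENS libraries and 5 reads in NEO 4. Slc5a4a, a relative of both that in mouse has a neighbouring copy, had 4 reads in each of SENS 1, SENS 2 and SENS 3. In NEO it had 4, 15, 3 and 3 reads in NEO 2, NEO 3, NEO 5 and NEO 6. That gave 170.1 ± 199 CPM in SENS and 546 ± 784 CPM in NEO (SD, n = 6 each). The copy Slc5a4b, which lies 36.4 kb away on chromosome 10, was at 0 throughout.

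Slc5a9 and Slc5a10 carry mannose or fructose. Slc5a9 had 5, 20 and 7 reads in SENS 1, SENS 3 and SENS 4 and 3 reads in NEO 1, or 455 ± 594 CPM in SENS and 48.9 ± 119.7 CPM in NEO (SD, n = 6 each). With a log2 fold change of 3.48 (SE 2.62) it had an adjusted p of 0.745 in limma. The reads of Slc5a10 were 6 in SENS 3, 3 in SENS 4 and 0 in NEO. Its pooled SENS level was 1.95 times the same limit of 3 reads. Of 12 genes with reads in SENS and none in NEO (16.0% of the 75 tested, against 22.7% of all genes), 2 were thus sugar carriers, Slc2a7 and Slc5a10. There were 8 genes with reads in NEO and none in SENS (10.7%, against 10.3% of all genes). The SENS libraries held more reads in the table, so both shares depend on depth.

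**Figure D2:**
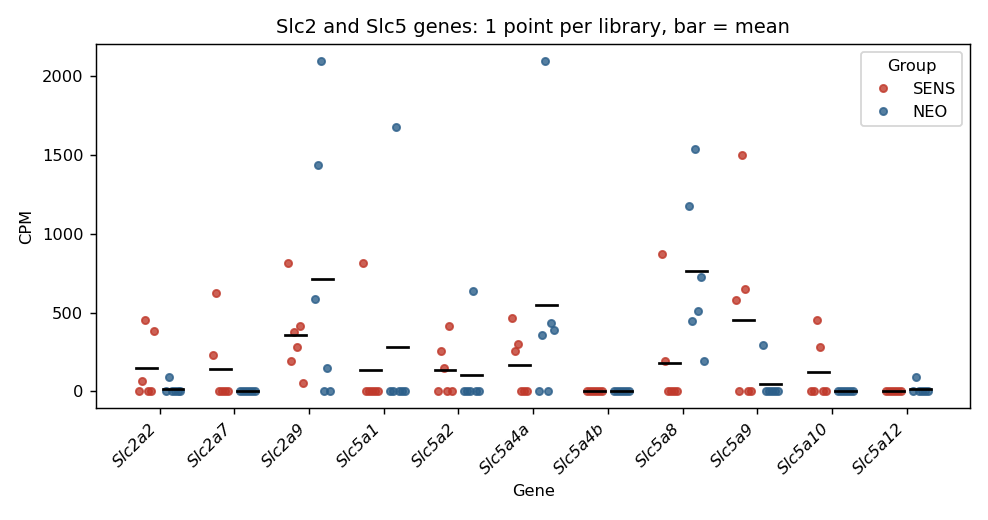
CPM of the 3 Slc2 and 8 Slc5 genes, with 1 point per library, SENS left and NEO right of each gene, and a bar at the mean. Most genes have 3 or more libraries at 0 in each group. Slc5a8 is the gene with all 6 NEO libraries above 0, and Slc2a9 the one with all 6 SENS libraries above 0.

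The promoters of these genes were read for a feature that their names do not give. Hepatocyte nuclear factor 1 is a transcription factor of kidney, liver and gut that binds paired copies of the letters GTTAAT. Promoter windows of RefSeq (GRCm38.p6, 250 bases before to 50 after a gene's start) were at hand for 56 of the 79 genes. The letters GTTAAT, on either strand (ATTAAC on the other), were in the window of 11 of the 56 genes, or 19.6%, against 8.24% of 27025 genes with a window and 8.75% of the 3910 such genes in this table. TATAAA, on either strand, was in 16 of the 56 (28.6%), against 15.7% and 17.9%. Each motif was searched alone, whether or not it overlapped the other, and a match is a description of these letters and not a binding site. Among the 11 genes were Slc5a10 and Slc5a4a of the sugar carriers and Slc3a1, the heavy subunit of the kidney cystine carrier, described with the amino acid carriers. Their windows are shown 5′ to 3′ because they show how the letters sit in single promoters, and capitals mark the match. They lie at chr11:61720750-61721049 (minus strand), chr10:76147201-76147500 (plus strand) and chr17:85028097-85028396 (plus strand). Counted from the start site of the window, the match began at −75 in Slc5a10, at 11 in Slc5a4a and at 1 in Slc3a1. Only in Slc5a10 did it thus lie before the start site.
Slc5a10: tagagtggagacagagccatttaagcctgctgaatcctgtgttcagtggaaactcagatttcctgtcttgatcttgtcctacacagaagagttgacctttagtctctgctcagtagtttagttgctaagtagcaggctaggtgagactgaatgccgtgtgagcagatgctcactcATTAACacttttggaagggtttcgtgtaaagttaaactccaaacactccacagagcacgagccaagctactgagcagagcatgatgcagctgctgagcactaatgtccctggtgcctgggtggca
Slc5a4a: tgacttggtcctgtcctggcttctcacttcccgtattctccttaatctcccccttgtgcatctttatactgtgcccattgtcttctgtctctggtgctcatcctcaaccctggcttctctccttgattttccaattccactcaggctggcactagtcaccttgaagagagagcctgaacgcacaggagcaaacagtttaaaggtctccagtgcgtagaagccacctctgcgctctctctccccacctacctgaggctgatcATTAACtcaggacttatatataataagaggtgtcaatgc
Slc3a1: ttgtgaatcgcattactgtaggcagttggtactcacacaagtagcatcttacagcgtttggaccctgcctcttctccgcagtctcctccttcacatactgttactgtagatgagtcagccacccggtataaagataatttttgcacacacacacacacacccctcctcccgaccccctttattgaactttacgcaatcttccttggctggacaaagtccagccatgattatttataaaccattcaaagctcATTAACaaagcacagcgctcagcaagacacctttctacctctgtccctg

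Amino acid carriers were few, with 5 genes, and 4 of them had lower mean CPM in SENS. Together they had 15.33 reads in SENS and 70.5 reads in NEO, or 238 ± 366 CPM in SENS and 1256 ± 817 CPM in NEO (SD, n = 6 each). The lowest, median and highest sums were 0, 75 and 931 CPM in SENS and 507, 967 and 2289 CPM in NEO, and SENS 4 was the SENS library that reached the NEO range. Of the 5 genes, 1 had an unadjusted p under 0.05, beside 3.68% of all genes.

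That gene was Slc38a8, a carrier of glutamine and related amino acids known from the retina. It had no reads in SENS, and 13, 10 and 3 reads in NEO 1, NEO 2 and NEO 5. The pooled NEO level was 13.3 times the SENS limit of 3 reads over the group, with no error set on the NEO reads. The means were 0 CPM in SENS and 434 ± 544 CPM in NEO (SD, n = 6 each), but 3 of the 6 NEO libraries were at 0 as well. In limma the log2 fold change was −4.82 (SE 2.30), with an adjusted p of 0.745. Slc3a1, whose promoter is printed above, had 1, 2 and 7 reads in SENS 1, SENS 2 and SENS 4, against 8, 6, 1, 4 and 6 reads in NEO 1 to 4 and NEO 6. Its mean was 149 ± 253 CPM in SENS and 457 ± 324 CPM in NEO (SD, n = 6 each), and limma gave a log2 fold change of −3.53 (SE 2.44) and an adjusted p of 0.745. Slc7a15 had no reads in SENS and 5 in NEO. Slc1a7, a glutamate carrier of the retina, had 3.33 reads in SENS and 13.5 in NEO, in 2 libraries of each group. Slc7a12 had 2 reads in SENS and 1 in NEO.

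Anion carriers had 402.0 reads in SENS, the most of any group there, and 157.0 reads in NEO. The sugar group, with Slc45 counted beside Slc2 and Slc5, had 208.5 reads in NEO, of which 85.0 were in Slc45. The 14 anion carrier genes summed to 4805 ± 2376 CPM in SENS and 3157 ± 925 CPM in NEO (SD, n = 6 each). The libraries ranged from 2324 to 7978 CPM in SENS and from 1795 to 4648 CPM in NEO. By mean CPM, 8 of the 14 genes were higher in SENS and 6 lower, and 1 had an unadjusted p under 0.05, beside 3.68% of all genes.

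That gene was Slc13a1, the sodium-sulfate co-transporter of kidney and gut. It had 1, 0, 8, 1, 0 and 0 reads in SENS 1 to 6, against 14, 7, 0, 17, 7 and 10 reads in NEO 1 to 6. The lowest, median and highest values were 0, 46.6 and 599.8 CPM in SENS and 0, 1153 and 2156 CPM in NEO. NEO 3 alone of the NEO libraries was at 0, and the remaining 5 lay above every SENS library. The mean was 135 ± 234 CPM in SENS and 1076 ± 729 CPM in NEO (SD, n = 6 each). The fit in limma gave a log2 fold change of −4.74 (SE 2.24) and an adjusted p of 0.745. Its relative Slc13a2 had 1 read, in SENS 1.

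The chloride and bicarbonate exchangers of Slc26 had a higher summed level in SENS, 3424 ± 2081 CPM against 1351 ± 872 CPM in NEO (SD, n = 6 each), and single libraries carried it. Slc26a7 had 1, 71, 11, 18, 0 and 0 reads in SENS 1 to 6 and 2 reads in NEO 6. Its log2 fold change of 5.23 had an SE of 2.78 and a limma adjusted p of 0.745. Slc26a4, the anion exchanger of thyroid and inner ear known as pendrin, had 2, 0, 2, 8, 7 and 78 reads in SENS 1 to 6 and 0, 9, 3, 0, 4 and 6 in NEO 1 to 6. Without the 78 reads of SENS 6, its 19 reads in 5 SENS libraries stood beside 22 reads in NEO. Slc26a5, the motor protein prestin of outer hair cells, had 43 of its 74 SENS reads in SENS 1 and 44 reads over 6 NEO libraries. Slc26a9 had 3 reads, all in SENS 6. The library with the most SENS reads was thus SENS 2 for Slc26a7, SENS 1 for Slc26a5, and SENS 6 for Slc26a4 and Slc26a9.

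Bicarbonate carriers of Slc4 were sparse. Slc4a5, a sodium-bicarbonate co-transporter of the choroid plexus, had 8 reads in SENS 2, 2 in SENS 3, 3 in SENS 5 and 0 in all NEO libraries. Its pooled SENS level was at least 2.81-fold higher than the NEO limit of 3 reads (log2 fold change 4.04, SE 2.07, limma adjusted p = 0.745). It was the one marker of the choroid plexus among 4 with a value in the table, and the part of that tissue was not tested. Slc4a9, an anion exchanger of the kidney, had 65 of 68 SENS reads in SENS 6 and 3 reads in NEO. Slc4a1, the anion exchanger of red blood cells, had 2 reads, in NEO 5. Of the phosphate and urate carriers, Slc17a2 had 186 ± 296 CPM in SENS and 333 ± 304 CPM in NEO (SD, n = 6 each). Slc17a3 had 11 reads in SENS, all in SENS 2, and 6 reads in 3 NEO libraries. The vesicular nucleotide carrier gene Slc17a9 had 10 reads in SENS, all in SENS 5, and 6 in NEO. The kidney phosphate carriers Slc34a1 and Slc34a3 had 1 read each, in NEO.

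Cation carriers gave the gene with higher values in SENS at an unadjusted p under 0.05. Slc12a1 encodes the sodium-potassium-chloride co-transporter of the thick ascending limb of the kidney. It had 5, 4, 3 and 6 reads in SENS 1 to 4, none in SENS 5 and SENS 6, and none in any NEO library. The mean was 270 ± 256 CPM in SENS and 0 CPM in NEO, and the pooled SENS level was at least 3.90-fold higher than the NEO limit of 3 reads. From limma came a log2 fold change of 5.69 (SE 2.46) and an adjusted p of 0.745. No single library carried it, as the 4 SENS libraries held 3 to 6 reads each. Umod, another gene of the same kidney segment, had 4 reads in SENS, all in SENS 1, and 2 reads in NEO. In Slc12a3, the sodium-chloride co-transporter of the next tubule segment, the values were 7, 8, 13, 6, 13 and 13 reads in SENS 1 to 6 and 3, 0, 16, 13, 2 and 11 in NEO 1 to 6. SENS libraries lay between 513 and 1079.7 CPM, within the NEO range of 0 to 2237 CPM. Its mean was lower in SENS (775 ± 225 CPM, against 982 ± 909 CPM in NEO, SD, n = 6 each) while limma put its log2 fold change at 1.44 (SE 1.07, adjusted p = 0.745). Without NEO 2, the library at 0, the log2 fold change was −0.19. Slc9b1, a sodium-proton exchanger of sperm, had 38 of its 55 SENS reads in SENS 6 and 18 reads over all 6 NEO libraries. Its mean was higher in SENS (560.1 ± 796 CPM, against 391 ± 375 CPM in NEO, SD, n = 6 each). Its log2 fold change had the opposite sign, at −2.02 (SE 1.78, limma adjusted p = 0.745).

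Organic ion carriers (Slc22, Slc47 and Slco) held 15 genes, 2 of them at 0. They summed to 2101 ± 2559 CPM in SENS and 1097 ± 723 CPM in NEO (SD, n = 6 each), and without SENS 2 the SENS mean was 1087 CPM. The difference lay in Slc22a2, the organic cation carrier of kidney and brain, with 93.5 reads in SENS 2, 9 in SENS 3, none in the other 4 SENS libraries and 3 in NEO 1. Slc22a22, a prostaglandin carrier of the mouse kidney, had 19 reads, all in SENS 6. Slc22a13 and Slc22a13b lie 11.4 kb apart on chromosome 9 and both carried fractions of reads in 2 libraries, so how their reads divide between the copies is uncertain. RefSeq lists Slc22a13b as a transcribed pseudogene. Slc22a13 had 2.5 reads in SENS and 6.5 in NEO, and Slc22a13b had 8.5 reads in SENS and 22.5 in NEO.

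The Slco genes encode carriers of bile salts, steroid conjugates and thyroid hormones. Slco1a1, on chromosome 6, had 1.73 reads or fewer in 4 of 6 NEO libraries but was above 0 in all 12. Its mean was 270.1 ± 133 CPM in SENS and 218 ± 90.5 CPM in NEO (SD, n = 6 each), with SENS from 170.2 to 536 CPM and NEO from 126 to 323 CPM. It had fractions of reads in 10 of 12 libraries, and its relative Slco1a6 in 10 of the 11 libraries where it was above 0. Their levels are therefore uncertain. Over all solute carrier genes 15 had such fractions in at least 1 library, and 11.7% of values above 0 were fractions, against 18.9% for the other genes. The liver gene Slco1b2 had 4 reads in SENS and 6 in NEO, and the testis genes Slco6c1 and Slco6d1 had 4 reads and 1 read, all in SENS 1.

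Mitochondrial carriers (Slc25, 6 genes) summed to 1587 ± 1015 CPM in SENS and 2222 ± 1232 CPM in NEO (SD, n = 6 each). Slc25a43 was the best covered of the genes with an unadjusted p under 0.05. It had 13, 9, 6, 3, 10 and 0 reads in SENS 1 to 6 and 7, 11, 8, 5, 16 and 20 in NEO 1 to 6. The lowest, median and highest values were 0, 514 and 1508 CPM in SENS and 634, 1053 and 2582 CPM in NEO, so that the groups overlapped but SENS 6 stood alone at 0. The mean was 608 ± 522 CPM in SENS and 1388 ± 847 CPM in NEO (SD, n = 6 each). In the limma fit the log2 fold change was −2.49 (SE 1.02) and the adjusted p 0.745. Without SENS 6 the log2 fold change was −0.94, and its unadjusted p no longer lay under 0.05. Slc25a2, a mitochondrial ornithine carrier, had 21 reads in 4 SENS libraries and 2 reads in NEO 5. Slc25a21, which carries oxodicarboxylates, had 35 reads in SENS and 17 in NEO, and Slc25a54 had none in SENS and 6 in 3 NEO libraries.

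**Figure D3:**
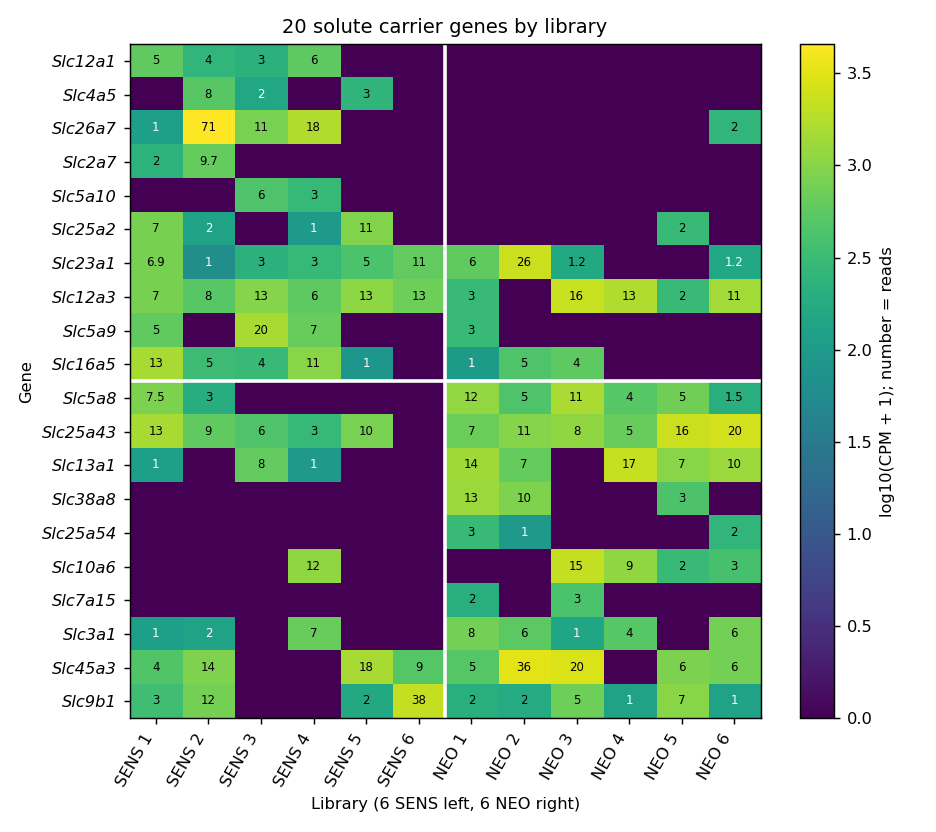
Colour gives log10(CPM + 1) and the number in each cell the reads, for 20 solute carrier genes (rows), the 10 in each direction whose unadjusted p was smallest, in 6 SENS libraries (left) and 6 NEO libraries (right). Slc12a1 has reads in SENS 1 to 4 only, and Slc5a8, Slc25a43 and Slc9b1 have reads in all 6 NEO libraries.

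Bile acid, steroid and lipid carriers had 125.43 reads in SENS and 85.0 in NEO over 6 genes, with 1536 ± 1041 CPM in SENS and 1695 ± 1386 CPM in NEO (SD, n = 6 each). Slc10a1, the bile acid carrier of the liver, had 24, 15, 10.2 and 16.9 reads in SENS 2, SENS 3, SENS 5 and SENS 6 and none in SENS 1 and SENS 4. In NEO it had 1, 17, 3 and 3 reads in NEO 1 to 4. Albumin, a liver gene outside the solute carriers, had 80 of its 96 SENS reads in SENS 4, where Slc10a1 was at 0. In NEO, 11 of the 18 albumin reads were in NEO 1, where Slc10a1 had 1 read. The liver gene Slco1b2 had 3 of its 4 SENS reads in SENS 4 and all 6 NEO reads in NEO 1. The part of liver cells in these reads was not tested. Slc10a6, a carrier of steroid sulfates, had 12 reads in SENS, all in SENS 4, against 15, 9, 2 and 3 reads in NEO 3 to 6 (log2 fold change −4.64, SE 2.79, limma adjusted p = 0.745). The fatty acid carrier gene Slc27a6 had 38 reads in 3 SENS libraries and 17 in 3 NEO libraries.

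Nucleoside carriers Slc28a1 and Slc28a3 together had 628 ± 656 CPM in SENS and 1367 ± 739 CPM in NEO (SD, n = 6 each), while both log2 fold changes were above 0 (0.57 and 0.39). The 3 peptide carriers had 37.4 reads in SENS and 12.0 in NEO, led by Slc15a3, a lysosomal carrier of immune cells, with 18 reads in 3 SENS libraries and 5 in NEO 4. The intestinal peptide carrier gene Slc15a1 had 15.4 reads in SENS, of which 10.2 were in SENS 3, and 3 in NEO. Slc16a5, of the monocarboxylate carrier family, had 13, 5, 4, 11, 1 and 0 reads in SENS 1 to 6 and 1, 5, 4, 0, 0 and 0 in NEO 1 to 6. That is 539 ± 596 CPM in SENS and 184 ± 253 CPM in NEO (SD, n = 6 each), with a log2 fold change of 3.16 (SE 2.43) and a limma adjusted p of 0.745.

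Among the remaining carriers, the vitamin C carrier gene Slc23a1 had 29.9 reads over all 6 SENS libraries and 34.4 reads in 4 NEO libraries, 26 of them in NEO 2. Its log2 fold change was 2.41 (SE 1.78), although its mean was 398 ± 268 CPM in SENS and 541 ± 905 CPM in NEO (SD, n = 6 each). Zinc carriers were close to the detection limit, with 10 reads in SENS and 1 in NEO for the insulin granule carrier gene Slc30a8 and 14 in SENS and 8 in NEO for Slc39a5. Of the transmitter carriers, the serotonin transporter gene Slc6a4 had 10 reads in SENS and 7 in NEO, in 2 libraries of each group, and the glycine transporter gene Slc6a5 had 1 read, in NEO 1. Slc45a3, a sugar carrier relative known from prostate, had 558 ± 571 CPM in SENS and 1360.2 ± 1324 CPM in NEO (SD, n = 6 each), with a log2 fold change of −2.21 (SE 1.71) and a limma adjusted p of 0.745. Slc45a2, of pigment cells, had 9 reads in SENS and 12 in NEO. The nucleotide sugar carrier gene Slc35d2 had 32.45 reads in SENS and 35.33 in NEO, and its relative Slc35g3 had 35 in SENS, of which 31 were in SENS 6, and 20 in NEO. Slc44a4, of the choline-like family, had 11 reads in SENS 3 and 13 in NEO, of which 12 were in NEO 4.

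**Figure D4:**
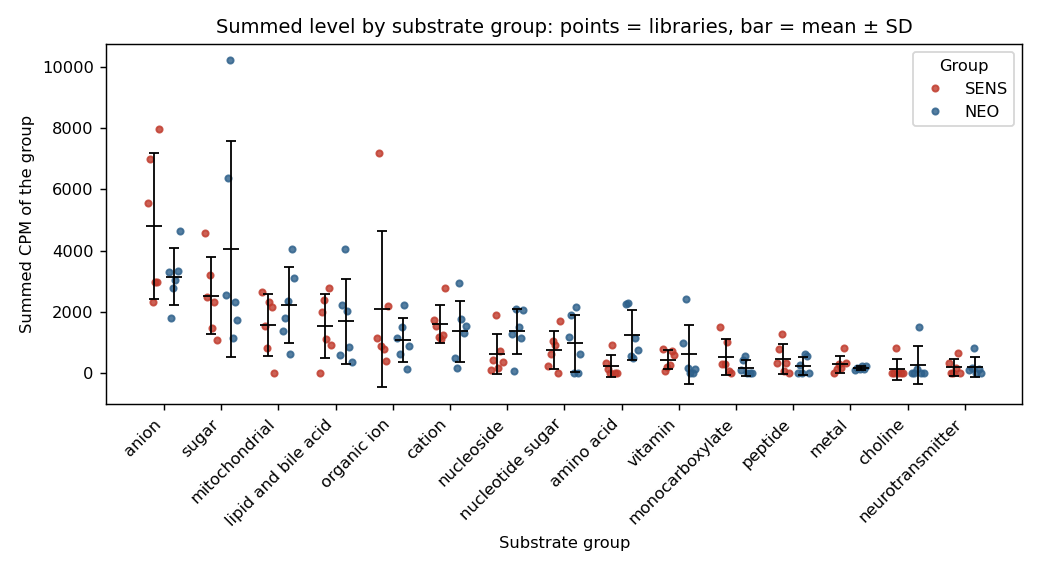
Summed CPM of each substrate group, with 1 point per library (SENS left, NEO right) and the mean ± SD. The highest mean is that of anion carriers in SENS (4805 CPM) and of sugar carriers, here Slc2, Slc5 and Slc45 together, in NEO (4054 CPM). High single points include SENS 2 for organic ion carriers (7171 CPM) and NEO 3 for sugar carriers (10208 CPM).

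Reads of a gene often sat in 1 library. Of the 49 solute carrier genes with 10 or more reads, 17 (34.7%) had at least 50% of them in a single library, against 25.6% of the 2684 other genes with as many reads. SENS 2 and SENS 6 were that library for 5 genes each. In the other genes SENS 6 was that library for 212 of 688. In SENS 6 these reads belonged to Slc4a9 (65), Slc26a4 (78), Slc9b1 (38), Slc35g3 (31) and Slc22a22 (19). In SENS 2 they included Slc22a2 (93.5) and Slc26a7 (71). SENS 6 had the most reads of any library (18299) and 21 solute carrier genes above 0, while SENS 2 had 39. Without both SENS 2 and SENS 6, a choice made after seeing these values, 0 solute carrier genes passed. At an unadjusted p under 0.05 there were 3, beside 166 of all 4932 genes.

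**Figure D5:**
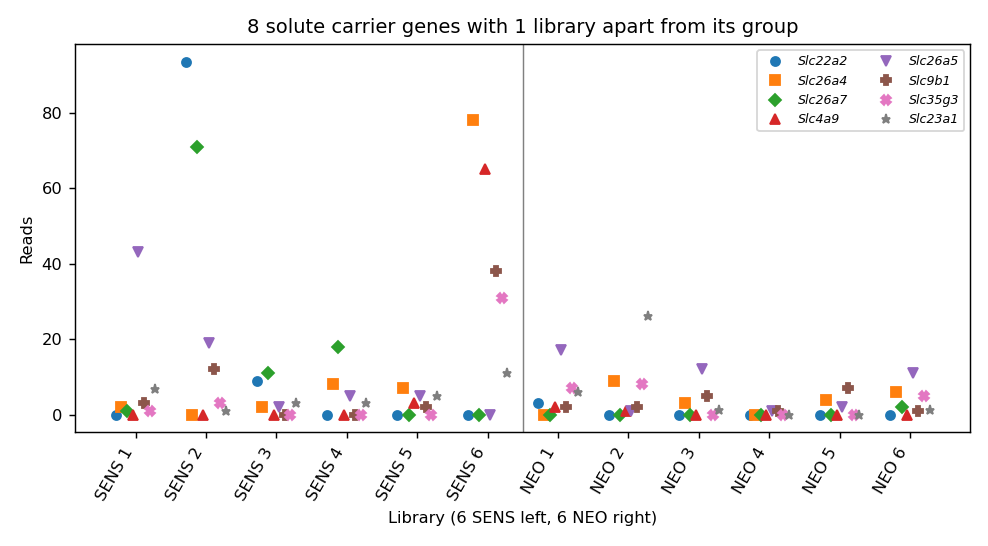
Reads of 8 solute carrier genes in each library, SENS left and NEO right of the line. Slc22a2 and Slc26a7 stand out in SENS 2, and Slc26a4, Slc4a9, Slc9b1 and Slc35g3 in SENS 6.

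Neighbouring gene groups that share functions with solute carriers were counted in the same fit. Of 53 listed ATP-binding cassette transporters, which pump substrates with ATP, the table held 11, and 0 of the 10 tested passed or had an unadjusted p under 0.05 (median log2 fold change 1.18). Abcc6 had 725 ± 741 CPM in SENS and 1024 ± 1445 CPM in NEO (SD, n = 6 each). Of 12 aquaporins, which are water channels, 7 were in the table and 0 passed or had an unadjusted p under 0.05 (median 0.52). Of 50 genes of sugar metabolism 12 were in the table, 0 passed, and 1 had an unadjusted p under 0.05 (3.68% of all genes did). That gene was Fbp2, the muscle form of fructose bisphosphatase, at 583 ± 613 CPM in SENS and 1281 ± 671 CPM in NEO (SD, n = 6 each), a log2 fold change of −3.74. By tissue list, 0 carriers passed in any. At an unadjusted p under 0.05 there were 1 with higher and 2 with lower values of the 21 kidney tubule carriers tested, and 0 with higher and 1 with lower values of the 13 intestine carriers, beside 1.83% higher and 1.85% lower over all genes. The lists for liver (8 tested), testis (7), choroid plexus and barrier (1), meninges and fibroblasts (2), neurons (3), astrocytes and tanycytes (2) and blood cells (2) had 0 in either direction.

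Listed markers of other cell types and of other organs were uneven between libraries. All 5 pituitary markers were in the table and summed to 64 to 9796 CPM in SENS and 380 to 1398 CPM in NEO. The 4 blood cell markers summed to 834 to 4236 CPM in SENS and 391 to 2174 CPM in NEO, with Hba-a1 at 0 and Slc4a1 at 0 in SENS. Of the 3 liver markers, 2 had a value and summed to 166 to 7729 CPM in SENS and 0 to 1661 CPM in NEO. The 3 kidney markers, Slc12a1 among them, summed to 0 to 1044 CPM in SENS and 0 to 290 CPM in NEO, and Slc34a1 was at 0 in SENS. The markers of astrocytes (4 listed), tanycytes (3), oligodendrocytes (3), microglia (3), endothelial cells (3), meningeal fibroblasts (5) and the 2 of AgRP neurons have no value in the table used here. The part of these cell types in the values above was not tested.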

How the data were processed

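RNA bound to tagged ribosomes was measured in 6 SENS and 6 NEO libraries. The authors deposited 1 table of CPM values (12 library columns, all used), and each column summed to between 999936 and 1000000. Per the submitters' processing notes the tools were FastQC, HISAT2, featureCounts and edgeR, and the builds GRCm38 and mm10, without versions. The labels name no filter on genes, no strand setting and no rule for shared reads. The most frequent value above 0 in a column was taken as 1 read. By that scale 81.2% of values above 0 were whole reads (tolerance 0.005 reads), too few for a count model. SENS was compared with NEO in limma 3.58.1 (R 4.3.3) on log2(CPM + 1), with a variance trend, no covariate, two-sided tests, a minimum mean of 1 CPM per gene, and Benjamini-Hochberg adjustment over all genes. The fit was also run on simulated reads with the same spread setting for every gene. That run does not cover genes whose reads sat mostly in 1 library.

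The members and lists were chosen with earlier results of these data known. Substrate groups follow family numbers. By rule, fold changes could be given for the 10 genes in each direction whose unadjusted p was smallest. Values could be given for all Slc2 and Slc5 genes and the 3 genes of highest mean CPM in each other group. Not all of these were printed. Fold changes of Slc2a2, the nucleoside carriers and Fbp2, and values of further genes, were added after their values were seen. Transcript lengths were not used, so levels are not ranked between genes. Alternatives were the pseudocount, the filter, the variance model, quantile scaling, blocks and leaving out libraries. RefSeq (GRCm38.p6) held all 79 symbols. Replicate numbers were not used to pair the libraries in the main fit. Intervals and limits cover counting error only.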

Additional observations from a re-analysis of the deposited data

Results flagged for a closer look

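For solute carrier genes with 10 or more reads in a group, 24 of 71 gene and group pairs had 1 library that stood apart from the other 5 by Dixon's criterion, or 33.8%. Over all genes of the table with as many reads it was 968 of 3776 pairs, or 25.6%. The rate of 1 in 20 that chance gives holds for normally distributed values, which counts with many libraries at 0 are not. In SENS 6 these were Slc26a4 (78 reads), Slc4a9 (65), Slc9b1 (38), Slc35g3 (31), Slc22a22 (19) and Slco1a1 (9.8). In SENS 2 they were Slc22a2 (93.5 reads), Slc26a7 (71), Slc17a3 (11) and Slc2a7 (9.7). SENS 3 stood apart for Slc44a4 (11 reads), Slc15a1 (10.2), Slc28a3 (10.2) and Slc13a1 (8). In SENS 1 it was Slc26a5 (43 reads) and Slc5a8 (7.5), in SENS 4 Slc10a6 (12), and in SENS 5 Slc17a9 (10) and Slc6a4 (8).

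Among NEO libraries, NEO 2 stood apart for Slc23a1 (26 reads) and Slc10a1 (17), NEO 3 for Slc5a4a (15) and Slc5a1 (12), and NEO 4 for Slc44a4 (12). Summed CPM stood apart for organic ion carriers in SENS 2 (7171 CPM), cation carriers in SENS 6 (2787), nucleoside carriers in SENS 3 (1889), amino acid carriers in SENS 4 (931) and transmitter carriers in NEO 3 (839).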

How the results depend on the processing

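Over 23 alternatives the number of genes that passed stayed at 0, among solute carrier genes and among all genes, where the smallest adjusted p was 0.177. The 5 solute carrier genes at an unadjusted p under 0.05 stood beside 189 of all 5141 genes. They became 2 without a filter on low values (Slc5a8 and Slc12a1), beside 160 of all 5764 genes. They became 3 without both SENS 2 and SENS 6 (166 of all 4932 genes). Without a variance trend they were 7, the most of any alternative (249 of all 5141 genes). When 1 library was left out, 168 to 208 of all genes had such a p. The solute carrier genes among them numbered 3 to 6, with 3 without SENS 2. Slc5a8 and Slc12a1 were among them in all 23 alternatives, Slc25a43 in 18, Slc38a8 in 12 and Slc13a1 in 9. With a single library left out, Slc25a43 was among them in 11 of 12 cases, Slc13a1 in 4 and Slc38a8 in 3. Higher against lower values numbered 1 against 4 with all libraries, 4 against 1 without SENS 6 and 2 against 2 with the replicate block. The cause was not tested. Of 455 fold changes of 20 named genes, 454 kept their direction, with adjusted p between 0.682 and 0.961. The exception was Slc12a3, at −0.19 without NEO 2, and −0.19 to 2.04 over the libraries left out. The 20 genes were chosen by their unadjusted p in these same data. The filter, the variance model and the blocks cannot change a fold change here. The count of kept directions is therefore no test of them. With the replicate number as a block 4 solute carrier genes had an unadjusted p under 0.05, beside 176 of all 5141 genes. Same-numbered SENS and NEO libraries stood in the same range of label numbers. Their deviations from the group means had correlations of −0.032 to 0.082. With so few reads per gene, these values cannot decide whether the numbers pair the libraries. Quantile scaling put the median over all genes at 0.34 on the log2 scale, against 0.39 without it. A gene near 1 read per library, or 54.6 to 145 CPM, cannot show a small difference at this depth.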
